A study of Homo sapiens with 8 samples.

Results

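The data describe 10 genes that hold back the kinase ERK or, in the case of DUSP10, its relatives JNK and p38: the dual-specificity phosphatases DUSP1, DUSP4, DUSP5, DUSP6 and DUSP10, the Sprouty genes SPRY1, SPRY2 and SPRY4, and the Spred genes SPRED1 and SPRED2. They were picked by symbol from the 27946 genes of the deposited table, and each gene is given by the transcript with its highest mean level. The study deleted a piece of an endothelial super-enhancer, SE12313, with CRISPR/Cas9 in EA.hy926, an immortalized line, a hybrid of umbilical vein endothelium and a lung carcinoma line, and sequenced total RNA after depletion of ribosomal RNA. There were 8 libraries: 2 of control EA.hy926 cells, 3 of clones without E2, the piece of SE12313 that was an active enhancer (ΔE2), and 3 of clones without SE12313-b, a second piece that the study used as a negative control (ΔSE12313-b). All cells were grown in the same high-glucose medium with serum and the labels give no treatment other than the deletion. Each clone was grown from a single cell, so a library of a deletion stands for 1 clone. The labels call the control libraries only controls, and whether they were cloned or came from separate cultures is not stated. In its proliferation assay the study used controls that had been given guide RNAs and were passaged alongside the clones, but it does not say that the control RNA came from those cells. The deletion and the growth from a single cell therefore cannot be told apart in a comparison with control, and p-values measure only the spread between these libraries.

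ERK is switched on by growth factor receptors through RAS, RAF and MEK. Its activity induces its own inhibitors: phosphatases of the DUSP family remove the activating phosphates from ERK and related kinases, and Sprouty and Spred proteins act upstream, between the receptor and RAF. The mRNA of several of these genes is therefore widely used as a readout of ERK output, and in endothelium Sprouty genes are known as brakes on growth factor-driven sprouting. Levels are given in FPKM (fragments counted on a transcript, scaled to its length and to the reads of the library), so they can be compared between genes. Changes are log2 fold changes (log2FC) on the scale log2(FPKM + 0.1), which understates changes at low levels. They were tested with limma across 13790 genes and adjusted by the Benjamini-Hochberg method. A gene is called when its adjusted p is under 0.05 and its level differs at least 2-fold.

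The libraries held 12067558 to 19101151 reads. Of 10 endothelial markers, CDH5, TIE1, ENG, EGFL7, TEK, ERG and PECAM1 were measured well above the filter of 0.5 FPKM, VWF lay between 0.346 and 2.02 FPKM, and KDR was at most 0.292 FPKM and CLDN5 at 0. PECAM1 (log2FC 1.11 in ΔE2 and 2.10 in ΔSE12313-b) and ERG (1.25 and 1.09) were called higher in both deletions and VWF lower (-1.72 and -1.80). Of 6 epithelial markers, KRT7, KRT8 and KRT18 were called higher in both deletions, CDH1 was at 0, EPCAM was at most 0.554 FPKM and KRT19 at most 0.16 FPKM. Their summed level was 361 to 363 FPKM in control and 811 to 1210 in the clones. The 4 leukocyte markers summed to at most 0.048 FPKM in any library, and the 4 fibroblast or mural markers, mostly ACTA2, to 5.01 to 6.41 FPKM in control and 0.448 to 1.78 in the clones. All 4 proliferation markers (MKI67, TOP2A, CCNB1, PCNA) were called higher in both deletions, and their summed level was 68.4 and 70.5 FPKM in control against 366 to 447 FPKM in the clones. These mRNA levels are not a rate of division. In its own assays the study found reduced proliferation and fewer cells in S phase in clones of both deletions. The proliferation and epithelial markers and some endothelial ones thus moved with every comparison to control below, and their part in those results was not tested.

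In the control cells the most abundant of the 10 genes was SPRY2, at 79.0 FPKM ± 3.04 (SD, n = 2). It was followed by DUSP5 (68.6 FPKM), DUSP4 (62.8), DUSP6 (55.9) and DUSP1 (44.6), and then, at under 10 FPKM, by SPRY4 (9.69), SPRED2 (6.64), SPRED1 (5.50) and DUSP10 (3.03). SPRY1 came last with 0.296 FPKM, from 5 and 12 reads. No neighbours in this order overlapped between the control libraries. In both deletions the order of mean levels was another one, and the same in each: DUSP4, DUSP5, DUSP6, DUSP1, SPRY2, SPRED1, SPRY4, SPRED2, DUSP10 and SPRY1. SPRY2 was the fifth, and SPRED1 had moved above SPRY4 and SPRED2. Within ΔE2 the libraries of DUSP4 and DUSP5, of DUSP5 and DUSP6, and of DUSP6 and DUSP1 overlapped. Within ΔSE12313-b those of DUSP4 and DUSP5, DUSP5 and DUSP6, DUSP1 and SPRY2, SPRED1 and SPRY4, SPRED2 and DUSP10 overlapped. 

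**Figure D1:**
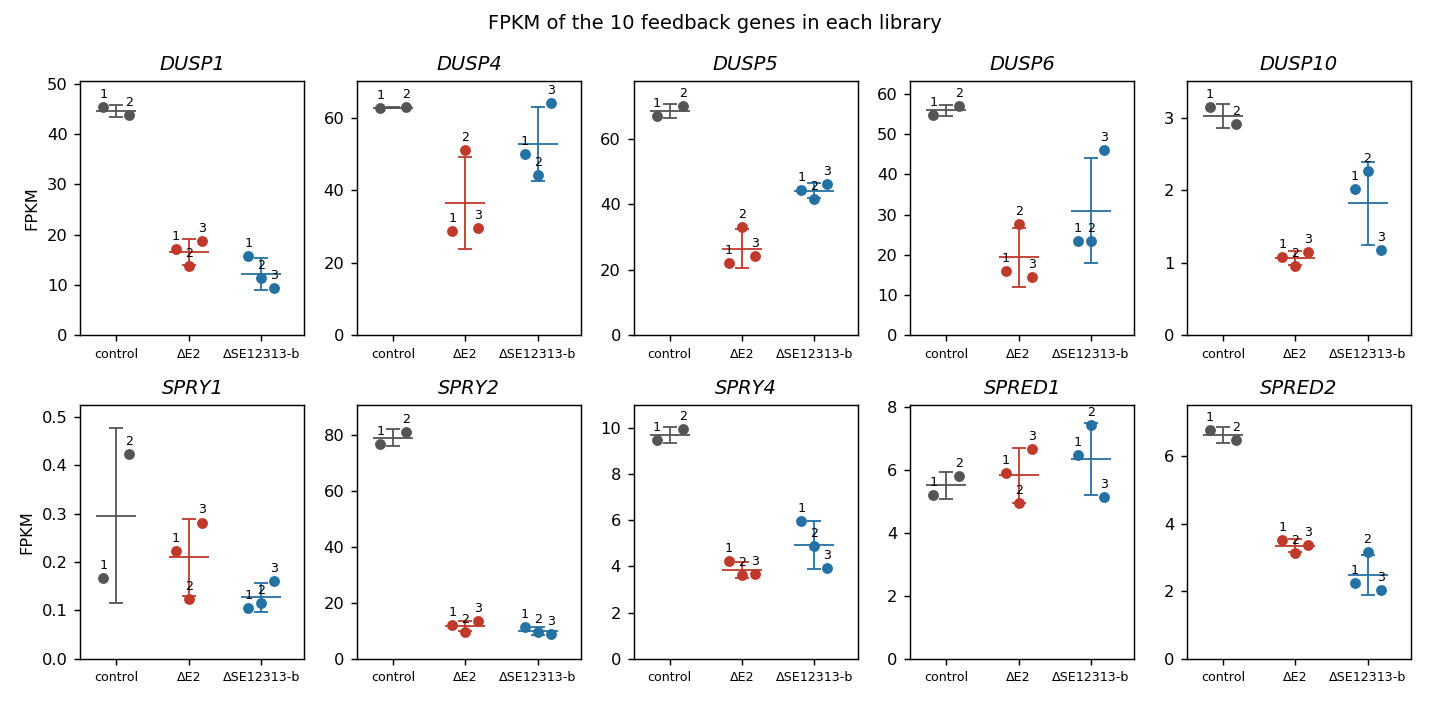
Level of each of the 10 genes in FPKM (vertical axis, starting at 0, one scale per gene) in the 2 control libraries, the 3 ΔE2 clones and the 3 ΔSE12313-b clones (horizontal axis). Points are libraries, numbered as in the labels, and bars show the mean and SD. SPRY2 falls from 76.9 and 81.2 FPKM in control to between 8.76 and 13.5 FPKM in the 6 clones, while SPRED1 overlaps between the groups.

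Without E2, 6 of the 9 genes that could be tested were called lower (DUSP1, DUSP5, DUSP6, DUSP10, SPRY2 and SPRY4) and 0 were called higher. Of all genes tested, 8.36% were called lower and 11.2% higher. Without SE12313-b, 3 of the 9 were called lower (SPRY2, DUSP1 and SPRED2) and 0 higher, beside 7.83% and 14.7% of all genes. With no demand on the size of the change, 8 of the 9 had an adjusted p under 0.05 in ΔE2, where 54.1% of all genes did, and 6 of the 9 in ΔSE12313-b, where 59.4% did (limma, Benjamini-Hochberg). Every clone lay below both control libraries for 8 of the 9 genes in ΔE2, all but SPRED1 (28.7% of all genes), and for 7 of the 9 in ΔSE12313-b, all but SPRED1 and DUSP4 (23.8% of all genes). SPRY2 and DUSP1 were called lower in both deletions, as were 5.16% of all genes. Both comparisons use the same 2 control libraries, so they are not separate tests of a gene.

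The median log2FC of the 9 genes was -1.40 in ΔE2 and -0.93 in ΔSE12313-b. The median over all genes tested was not at 0 but at 0.14 and 0.27. When each library was shifted so that its median log2 difference from the average of all libraries was 0 (centred), 7 of the 9 genes were called lower in ΔE2, with SPRED2 added, and 6 in ΔSE12313-b, with DUSP6, DUSP10 and SPRY4 added. The same step turned the balance over all genes, from 1544 called higher and 1153 lower to 1170 and 1464 in ΔE2, and from 2032 and 1080 to 1201 and 1570 in ΔSE12313-b. These are bulk samples, so fewer cells that express a gene and less RNA per cell cannot be told apart.

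**Figure D2:**
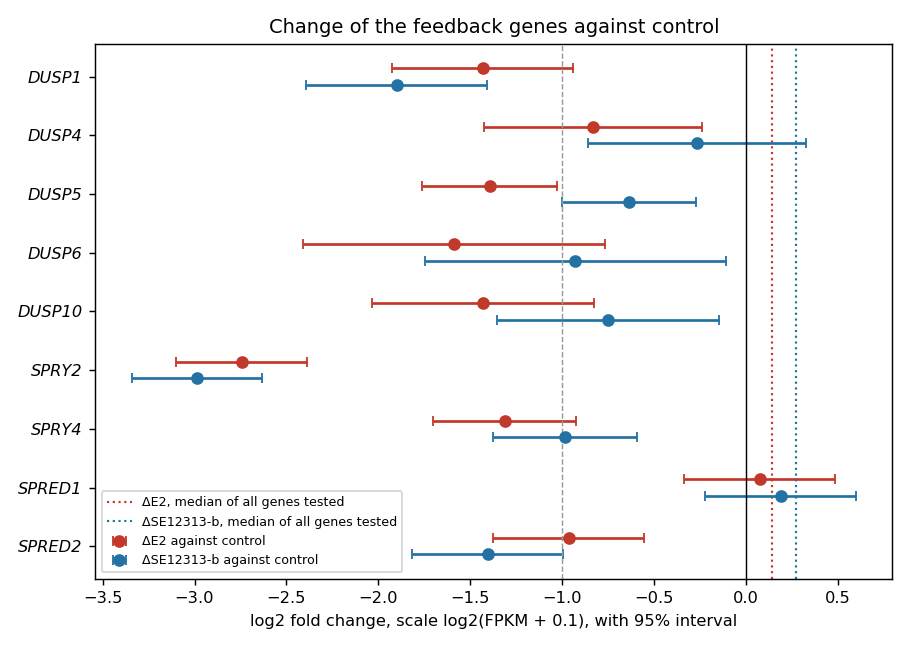
Log2 fold change against control (horizontal axis, scale log2(FPKM + 0.1)) of the 9 genes that passed the filter on low levels, with 95% confidence intervals from limma, for ΔE2 and ΔSE12313-b. The dashed line marks a 2-fold decrease and the dotted lines the medians of all genes tested, 0.14 and 0.27. The points of SPRY2, at -2.74 and -2.99, lie farthest to the left, and both intervals of SPRED1 include 0.

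The Sprouty genes held the largest decrease. SPRY2, an inhibitor of receptor tyrosine kinase signalling (GRCh37 chr13:80910111-80915250, minus strand), had 76.9 and 81.2 FPKM in the control libraries, 12.2, 9.75 and 13.5 FPKM in ΔE2 clones 1 to 3, and 11.4, 9.66 and 8.76 FPKM in ΔSE12313-b clones 1 to 3. All 6 clones were far below both controls, and the clones of one deletion overlapped with those of the other. SPRY2 fell to 14.9% of the control mean in ΔE2 (log2FC -2.74, SE 0.15, adjusted p = 5.72e-06) and to 12.6% in ΔSE12313-b (log2FC -2.99, SE 0.15, adjusted p = 3.19e-06) in the limma test with Benjamini-Hochberg adjustment. Its 4 transcripts in the table moved together, with log2FC between -2.79 and -2.74 in ΔE2 and between -3.07 and -2.99 in ΔSE12313-b. The direct difference between the deletions was 0.24 (95% interval -0.07 to 0.56, limma adjusted p = 0.23).

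SPRY2 and DUSP1 were called in both deletions, and the 250 bases before a start site of each are shown so that a reader can see the sequence next to the genes with the decrease. The sequences are from RefSeq (GRCh38.p14), which had windows of 250 bases before and 50 after the start for 8 of the 10 genes. SPRY2 has 3 start sites there, and the most upstream is shown. Capitals mark matches, on either strand, to a cAMP response element (CRE, TGACGTCA), an AP-1 motif (TGANTCA), an ETS core (CCGGAA) or the letters TATAAA of a core promoter. The CArG box, the motif of serum response factor, was searched too.
SPRY2: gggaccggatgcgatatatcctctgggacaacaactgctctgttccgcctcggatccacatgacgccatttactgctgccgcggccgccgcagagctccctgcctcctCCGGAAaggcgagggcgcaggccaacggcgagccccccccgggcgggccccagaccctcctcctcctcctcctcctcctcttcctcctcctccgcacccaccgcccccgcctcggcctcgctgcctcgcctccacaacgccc
DUSP1: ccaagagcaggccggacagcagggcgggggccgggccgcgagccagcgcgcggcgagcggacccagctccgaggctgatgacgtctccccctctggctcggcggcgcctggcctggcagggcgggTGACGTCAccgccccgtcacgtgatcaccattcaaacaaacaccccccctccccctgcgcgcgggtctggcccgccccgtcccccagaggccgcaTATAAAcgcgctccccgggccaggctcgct
The SPRY2 stretch is chr13:80341127-80341376 and the DUSP1 stretch chr5:172771196-172771445, both on the minus strand. The SPRY2 stretch holds 1 ETS core, at -142 to -137 from the start, and the other windows of SPRY2 hold no match. The DUSP1 stretch holds a CRE at -125 to -118 and TATAAA at -30 to -25. Of 35116 promoter windows of this length, 1.85% held a CRE, 17.2% an ETS core, 11.5% the letters TATAAA, 7.71% an AP-1 motif and 1.29% a CArG box. No matches in these 2 stretches overlap, and a match is a run of letters, not a measured site.

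SPRY4, which also blocks the receptor's signal to ERK (GRCh37 chr5:141689992-141704620, minus strand), had 9.45 and 9.94 FPKM in control, 4.24, 3.62 and 3.67 FPKM in ΔE2 and 5.97, 4.87 and 3.91 FPKM in ΔSE12313-b. Both sets of clones lay below the controls and overlapped with each other. It fell to 39.7% of control in ΔE2 (limma log2FC -1.31, SE 0.17, Benjamini-Hochberg adjusted p = 0.000422). In ΔSE12313-b it lay just short of a 2-fold decrease (log2FC -0.98, SE 0.17, limma adjusted p = 0.0015), and was called when control 1 (log2FC -1.02) or ΔSE12313-b clone 1 (-1.13) was left out. SPRY1 (GRCh37 chr4:124319541-124324915, plus strand) was close to absent, with 0.168 and 0.424 FPKM in control, 0.223, 0.124 and 0.282 in ΔE2 and 0.106, 0.115 and 0.161 in ΔSE12313-b. These values rest on 4 to 12 reads per library and the gene did not pass the filter. With a filter that only asked for a level above 0, its log2FC was -0.31 in ΔE2 (limma adjusted p = 0.513) and -0.73 in ΔSE12313-b (adjusted p = 0.124), and a difference was not detectable at this depth.

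Among the inducible phosphatases that act in the nucleus, DUSP1, the stress- and growth factor-induced phosphatase of p38, JNK and ERK (GRCh37 chr5:172195093-172198203, minus strand), was called in both deletions. It had 45.5 and 43.7 FPKM in control, 17.2, 13.8 and 18.8 FPKM in ΔE2 and 15.7, 11.4 and 9.32 FPKM in ΔSE12313-b. Neither deletion overlapped with control, and the clones of both overlapped with each other. DUSP1 fell to 37.2% of control in ΔE2 (log2FC -1.43, SE 0.21) and to 27.2% in ΔSE12313-b (log2FC -1.90, SE 0.21), with adjusted p values of 0.000866 and 0.000162 (limma, Benjamini-Hochberg).

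DUSP5, a nuclear phosphatase specific for ERK (GRCh37 chr10:112257625-112271302, plus strand), separated the 3 groups. The controls had 67.1 and 70.1 FPKM, the ΔE2 clones 21.9, 33.2 and 24.2 FPKM, and the ΔSE12313-b clones 44.3, 41.7 and 46.3 FPKM. No library of one group reached into another. DUSP5 fell to 38.5% of control in ΔE2 (limma log2FC -1.40, SE 0.16, adjusted p = 0.000227, Benjamini-Hochberg). In ΔSE12313-b it was at 64.3% of control, a log2FC of -0.64 (SE 0.16, limma adjusted p = 0.00918) that did not reach 2-fold, and the adjusted p was 0.0564 without control 2.

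The same gene was the only one of the 9 with an adjusted p under 0.05 between the deletions, where 26.0% of all genes had one. Its log2FC of ΔE2 against ΔSE12313-b was -0.76 (95% interval -1.09 to -0.43, limma adjusted p = 0.00749), and it stayed between -0.93 and -0.64 (adjusted p up to 0.0312) when each library was left out in turn. DUSP5 lies on 10q. The other 406 genes tested on that arm had a median log2FC of 0.18 in ΔE2, 0.75 in ΔSE12313-b and -0.45 between the deletions, and DUSP5 lay 1.58, 1.39 and 0.30 log2 units below these medians. What the level of the whole arm contributes to the difference in DUSP5 was not tested.

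DUSP4, another nuclear phosphatase of ERK and its relatives (GRCh37 chr8:29190579-29208267, minus strand), was the phosphatase closest to its control level in both deletions. It had 62.6 and 62.9 FPKM in control, 28.7, 51.1 and 29.5 FPKM in ΔE2 and 50.03, 44.2 and 64.1 FPKM in ΔSE12313-b. ΔE2 clone 2 was well above the other ΔE2 clones, and ΔSE12313-b clone 3 was the highest library of all. DUSP4 was at 58.1% of control in ΔE2 (limma log2FC -0.84, SE 0.26, adjusted p = 0.0253) and at 84.1% in ΔSE12313-b (-0.27, adjusted p = 0.396), and neither was called. In ΔE2 it was called without clone 2 (log2FC -1.11, limma adjusted p = 0.00131), and the adjusted p rose above 0.05, to between 0.0734 and 0.0988, without any of the other ΔE2 clones or either control.

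DUSP6, the cytoplasmic phosphatase specific for ERK (GRCh37 chr12:89741602-89746636, minus strand), had 54.9 and 57.0 FPKM in control, 15.9, 27.8 and 14.4 FPKM in ΔE2 and 23.4, 23.4 and 46.0 FPKM in ΔSE12313-b. All clones were below the controls, but 1 clone of each deletion, ΔE2 clone 2 and ΔSE12313-b clone 3, lay above the others, at 1.92 and 1.97 times the lowest clone of their deletion. DUSP6 fell to 34.6% of control in ΔE2 (limma log2FC -1.59, SE 0.35, Benjamini-Hochberg adjusted p = 0.00635). In ΔSE12313-b it was at 55.3% of control (log2FC -0.93, SE 0.35, limma adjusted p = 0.0517) and was not called, whereas without ΔSE12313-b clone 3 it was (log2FC -1.25, adjusted p = 0.00756). DUSP6 is the only one of the 10 genes whose exons overlap another annotated gene, ENSG00000274021, over 1105 bases on the opposite strand, and the use of strand behind the FPKM is not stated. Reads of both cannot be told apart here.

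The genes whose levels followed DUSP6 most closely over the 8 libraries were H6PD, CUEDC2 and CACNG6, with Pearson correlations of 0.996, 0.994 and 0.992 on the log2 scale. H6PD, an enzyme that makes NADPH in the endoplasmic reticulum, had 15.2 and 15.9 FPKM in control, 5.39, 9.03 and 5.59 in ΔE2 and 7.76, 7.44 and 12.8 in ΔSE12313-b. CACNG6, a subunit of calcium channels, had 28.7 and 29.8, then 5.51, 10.5 and 4.32, then 8.72, 7.23 and 18.3 FPKM. The points share their libraries and fall into the groups of the study, and the genes were chosen for this likeness, so the values are a description only.

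DUSP10, which acts on JNK and p38 rather than ERK (GRCh37 chr1:221874762-221915518, minus strand), was the lowest of the phosphatases. It had 3.15 and 2.91 FPKM in control, 1.08, 0.961 and 1.15 FPKM in ΔE2 and 2.02, 2.27 and 1.18 FPKM in ΔSE12313-b, from 42 to 107 reads. The 3 groups did not overlap, although ΔSE12313-b clone 3 lay only just above the ΔE2 clones. DUSP10 fell to 35.1% of control in ΔE2 (limma log2FC -1.43, SE 0.26, adjusted p = 0.00239), and 3 transcripts gave log2FC between -1.65 and -1.43. In ΔSE12313-b it was at 60.1% (log2FC -0.75, SE 0.26, limma adjusted p = 0.0366), under 2-fold, with an adjusted p of 0.154 without control 1 and 0.107 without control 2.

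The Spred genes, whose products hold back RAS with the help of neurofibromin, went apart. SPRED2 (GRCh37 chr2:65537985-65593931, minus strand) had 6.79 and 6.48 FPKM in control, 3.53, 3.15 and 3.38 FPKM in ΔE2 and 2.26, 3.16 and 2.04 FPKM in ΔSE12313-b. All clones were below the controls. SPRED2 fell to 37.4% of control in ΔSE12313-b (limma log2FC -1.41, SE 0.18, Benjamini-Hochberg adjusted p = 0.000301). In ΔE2 it was at 50.5% (log2FC -0.97, SE 0.18, limma adjusted p = 0.00249), just short of 2-fold, and was called without ΔE2 clone 1 (log2FC -1.001).

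SPRED1 (GRCh37 chr15:38545052-38649450, plus strand) had 5.21 and 5.80 FPKM in control, 5.89, 4.93 and 6.67 FPKM in ΔE2 and 6.46, 7.42 and 5.13 FPKM in ΔSE12313-b. All groups overlapped. Its log2FC was 0.07 in ΔE2 (95% interval -0.34 to 0.48, limma adjusted p = 0.747) and 0.19 in ΔSE12313-b (-0.23 to 0.60, adjusted p = 0.394), and both turned negative when the libraries were centred (-0.08 and -0.10). The intervals leave out a 2-fold change in either direction.

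Between the deletions 0 of the 9 genes were called, where 2.63% of all genes were called lower and 1.60% higher in ΔE2. With 1 member at an adjusted p under 0.05 (limma, Benjamini-Hochberg), the unadjusted p was under 0.05 for 5 members, as for 38.8% of all genes, and limma's voom on the recovered reads also called 0. DUSP5 and DUSP10 were lower in every ΔE2 clone than in every ΔSE12313-b clone (29.8% of all genes), and 0 members were higher in every one (11.0%). The log2FC of ΔE2 against ΔSE12313-b was -0.68 for DUSP10 (95% interval -1.22 to -0.14), -0.66 for DUSP6 (-1.39 to 0.07), -0.57 for DUSP4 (-1.10 to -0.04) and -0.33 for SPRY4 (-0.68 to 0.02). It was positive for DUSP1, at 0.47 (0.03 to 0.91), and for SPRED2, at 0.44 (0.07 to 0.81), and -0.11 for SPRED1 (-0.48 to 0.26). Adjusted over all genes, none of these 7 passed (limma adjusted p from 0.0668 to 0.64), and several intervals still allow a difference of 2-fold. Leaving out 1 clone brought the adjusted p under 0.05 for DUSP4 (0.0086 without ΔE2 clone 2), DUSP10 (0.00626) and SPRY4 (0.033, both without ΔSE12313-b clone 3), SPRED2 (0.0107 without ΔSE12313-b clone 2) and DUSP1 (0.0273 without ΔSE12313-b clone 1), none of them at 2-fold.

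The clones of a deletion differed among themselves in a way that ran through all 9 genes. ΔE2 clone 2 and ΔSE12313-b clone 3 were each the highest of their deletion for DUSP4, DUSP5 and DUSP6, and each the lowest for the other 6 genes. Over all genes tested, 20.0% were highest in both of these clones and 21.7% lowest in both. For DUSP6 the 2 clones lay 0.58 and 0.65 above the mean of their deletion on the log2 scale, for DUSP4 0.54 and 0.30, and for DUSP5 0.35 and 0.07. For DUSP10 they lay at -0.13 and -0.54, for DUSP1 at -0.26 and -0.34, and for SPRY2 at -0.26 and -0.17. This pattern was seen in the values and was not sought by a rule set in advance. Of 8 endothelial markers tested, 7 were also highest in these 2 clones, all but PECAM1, and the summed level of the 10 markers was 649 and 667 FPKM there against 459 to 568 in the other clones and 434 in both controls. Of the 4 proliferation markers, 3 were lowest in them. The part of either in the pattern was not tested. Without both clones, DUSP4 was called in ΔE2 (log2FC -1.11) but not in ΔSE12313-b (-0.42), DUSP6 was called in ΔSE12313-b as well (-1.25), and 7 and 4 of the 9 genes were called lower.

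**Figure D3:**
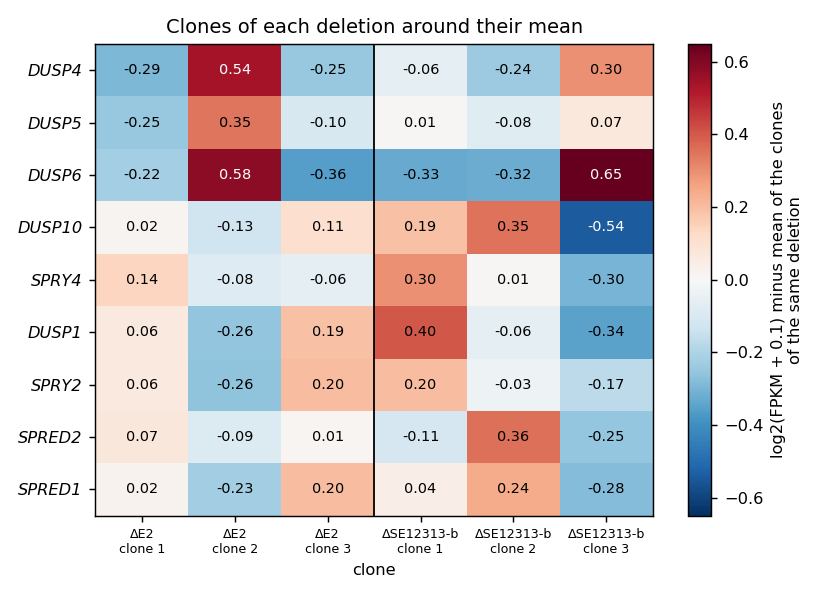
Level of each gene in a clone minus the mean of the 3 clones of its deletion, on the scale log2(FPKM + 0.1) (colour and printed value), for 9 genes (vertical axis) and 6 clones (horizontal axis). ΔE2 clone 2 and ΔSE12313-b clone 3 are above their means for DUSP4, DUSP5 and DUSP6 (0.58 and 0.65 for DUSP6) and below them for the other 6 genes.

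Other genes of the pathway were called in both directions. For the counts of all 5 lists below, the shares over all genes tested were 11.2% called higher and 8.36% lower in ΔE2. In ΔSE12313-b they were 14.7% higher and 7.83% lower. Of 19 other feedback inhibitors and phosphatases, 13 passed the filter. Of these, 2 were called higher and 2 lower in ΔE2, and 4 higher and 2 lower in ΔSE12313-b, with median log2FC of 0.27 and 0.18. ERRFI1, an inhibitor of the EGF receptor, fell from 167 FPKM ± 4.72 (SD, n = 2) in control to 29.9 ± 3.48 in ΔE2 and 18.6 ± 5.94 in ΔSE12313-b (n = 3 each), a log2FC of -2.48 and -3.21. DUSP16, a phosphatase of JNK, fell by 1.09 and 1.02 on the log2 scale, and without ΔE2 clone 1 its log2FC in ΔE2 was -0.97, under 2-fold. PEA15, which keeps ERK in the cytoplasm, rose by 1.63 and 1.57, and PEBP1, an inhibitor of RAF, by 1.05 and 1.35. DUSP3 was called higher only without SE12313-b (log2FC 0.96 in ΔE2 and 1.24 in ΔSE12313-b), and the direct difference between the deletions was -0.29 (limma adjusted p = 0.0193). DUSP14, named after its value was seen, completes the genes called higher in ΔSE12313-b (1.18). The rises of PEBP1 in ΔE2 and of DUSP3 lost the call when libraries were centred (0.89 and 0.95), and PEBP1 in ΔE2 also without clone 3 (0.995). Centring shifts all genes of a comparison equally, so DUSP14, which rose less than DUSP3 in ΔSE12313-b, also falls under 2-fold there.

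Of 28 receptors and ligands above ERK, 17 were tested, with 1 called higher and 2 lower in ΔE2 and 0 higher and 4 lower in ΔSE12313-b (median log2FC -0.09 and -0.22). AREG, a ligand of the EGF receptor, fell from 18.1 FPKM to 2.65 and 1.73 (log2FC -2.75 and -3.32), and VEGFA, the main endothelial growth factor, from 24.7 FPKM to 4.09 and 3.32 (-2.57 and -2.88). NRG1 and VEGFC, ligands of ERBB and VEGF receptors, were called lower in ΔSE12313-b (log2FC -1.31 and -1.24). In ΔE2, NRG1 was also lower but under 2-fold (-0.94, limma adjusted p = 0.000777), and VEGFC was at -0.36 (adjusted p = 0.158). The direct difference between the deletions was 0.37 for NRG1 (limma adjusted p = 0.0576) and 0.88 for VEGFC (adjusted p = 0.0104). EGFR was called higher in ΔE2, at 8.98 FPKM ± 2.91 against 3.99 ± 0.10 (log2FC 1.09, limma adjusted p = 0.0366), a call that was lost without either control or without ΔE2 clone 1 or 3, among other settings (log2FC 0.91 to 1.11 without these libraries). TGFA, another ligand of the EGF receptor, was lower in ΔE2 than in ΔSE12313-b, at 1.09 against 2.80 FPKM.

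All 25 genes of the RAS-ERK cascade were tested, and their median log2FC was 0.06 in ΔE2 and 0.21 in ΔSE12313-b. HRAS rose from 7.68 FPKM to 22.1 and 25.2 (log2FC 1.51 and 1.70), RRAS2, a relative of RAS, from 25.5 to 54.7 and 68.7 (1.09 and 1.42), and RPS6KA1, a kinase activated by ERK, from 2.92 to 6.26 and 9.99 (1.07 and 1.73). No other gene of the list was called in ΔE2, and RPS6KA2 was called lower in ΔSE12313-b (log2FC -1.45). The share called higher over all genes was 11.2% in ΔE2 and 14.7% in ΔSE12313-b. Centring lowered RRAS2 and RPS6KA1 in ΔE2 to 0.94 and 0.92, under 2-fold.

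Of 22 transcription targets of ERK, all tested, 2 were called higher and 2 lower in ΔE2 and 0 higher and 2 lower in ΔSE12313-b (median log2FC -0.10 and -0.19, with 1 higher and 3 lower, and 0 and 5, when libraries were centred). Over all genes, 11.2% were called higher and 8.36% lower in ΔE2, and 14.7% and 7.83% in ΔSE12313-b. PHLDA1, a growth factor-induced regulator of cell survival, fell from 75.9 FPKM to 19.1 and 34.4 (log2FC -1.99 and -1.14). LIF, a cytokine, was called lower in ΔE2 (-2.22) and EGR1, an immediate early transcription factor, in ΔSE12313-b (-2.44). In every ΔE2 clone LIF was under the filter of 0.5 FPKM, at 0.167 to 0.462 FPKM from 9 to 35 reads. ETS1 and EPHA4 were called higher in ΔE2 (1.33 and 1.09, with EPHA4 at 0.93 and not called when libraries were centred). Of 15 genes of the JNK and p38 cascade, all tested, 1 was called higher and 1 lower in ΔE2, and 2 higher and 1 lower in ΔSE12313-b (median log2FC 0.20 and 0.27). MAP2K6, which activates p38, rose from 0.174 FPKM to 2.57 and 2.20 (3.26 and 3.06). Its control level rests on 4 reads in each library, under the filter of 0.5 FPKM, so it passed only through the clones. The size of its rise is therefore uncertain. MAPK13, a p38 kinase, fell from 2.79 FPKM to 0.198 and 1.01 (-3.32 and -1.42), with the call in ΔSE12313-b lost without either control (-1.44 and -1.41). In the ΔE2 clones MAPK13 too was under the filter, at 0.124 to 0.295 FPKM from 15 to 32 reads. LIF and MAPK13 passed only through the other groups, so the sizes of their decreases in ΔE2 are uncertain. MAPK8, which encodes JNK1, was called higher in ΔSE12313-b (1.09, but 0.81 when libraries were centred, under 2-fold). The medians of these 5 lists lay between -0.10 and 0.27 in ΔE2, where that of all genes tested was 0.14, and between -0.22 and 0.27 in ΔSE12313-b, where it was 0.27. Those of the receptors and ligands, of the RAS-ERK cascade and of the ERK targets were below the median of all genes in both deletions. That of the other feedback inhibitors and phosphatases was below it in ΔSE12313-b but not in ΔE2. The medians of the 9 feedback genes were -1.40 and -0.93. The feedback genes were chosen with results of these libraries known, so this is a description and not a test.

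**Figure D4:**
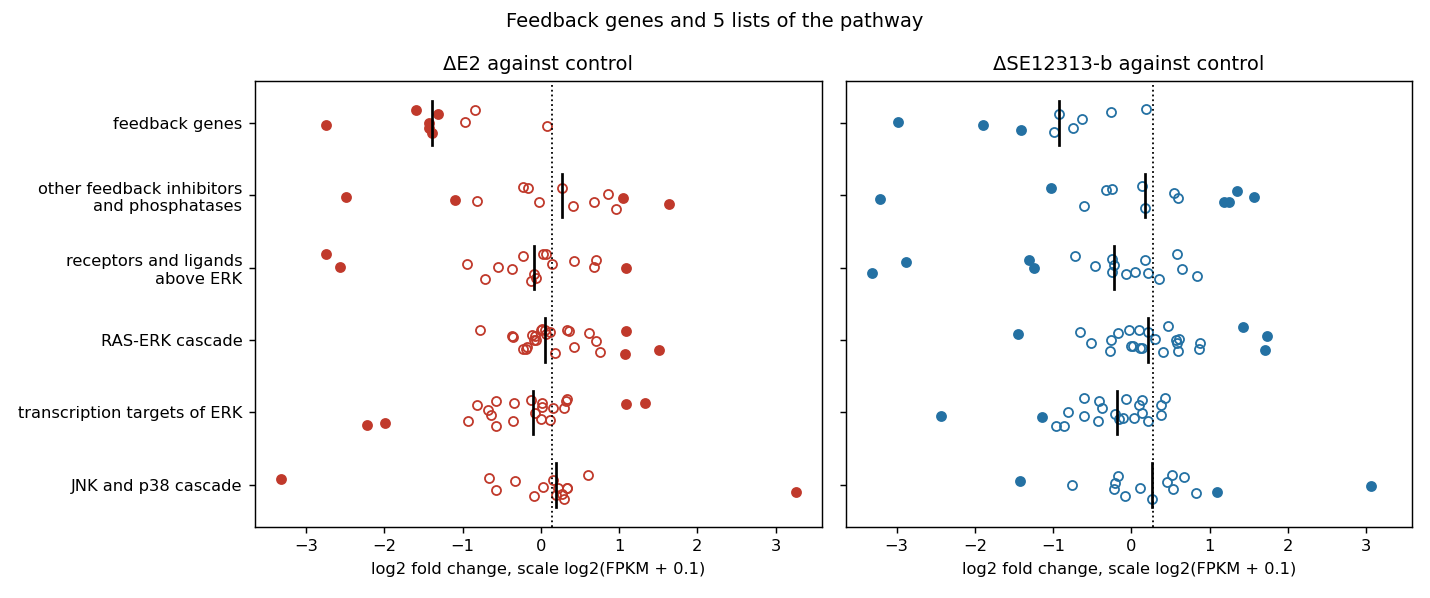
Log2 fold change against control (horizontal axes, scale log2(FPKM + 0.1)) of the feedback genes and of 5 lists of the pathway (vertical axis), for ΔE2 on the left and ΔSE12313-b on the right. Points are genes, filled where called, short bars are the medians of a list, and the dotted line is the median of all genes tested (0.14 and 0.27). The bar of the feedback genes lies at -1.40 and -0.93, and those of the other lists between -0.22 and 0.27.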

How the data were processed

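RNA from 8 EA.hy926 libraries (2 control, 3 ΔE2 clones, 3 ΔSE12313-b clones) was measured. Per the submitters' processing notes, reads were trimmed with Trim Galore 0.4.4 and mapped to GRCh37 (hg19) with STAR 2.5.4b. The values used are FPKM that the authors deposited for 65572 RefSeq transcripts, and the tool, RefSeq release and use of strand behind them are not given in the sources used here. The kit was directional. The counts behind the authors' own calls were not used.

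Each symbol was represented by its transcript of highest mean level (27946 genes). FPKM times transcript length gave whole reads, within 0.1 read, for 99.99% or more of the values checked in each library. These recovered reads, 7802427 to 13374260 per library on the kept transcripts, were used for depth and 1 alternative. They cover counting error only.

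Genes with at least 0.5 FPKM in at least 2 libraries (13790) were tested by limma 3.58.1 (R 4.3.3) after the transformation log2(FPKM + 0.1) (1 model of 3 groups, variance trend, two-sided), with Benjamini-Hochberg adjustment over all of them. A gene was called at an adjusted p under 0.05 if it also differed 2-fold or more. The contrasts were each deletion against control and ΔE2 against ΔSE12313-b. The steps were also run on simulated counts with independent libraries, the same extra spread for every gene and changes set in ΔE2 only. These data differ from that in the spread between clones and in the shift of the median, so the simulation does not cover them.

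The members, lists, rules and tests were chosen with earlier results of these data known. Of each pathway list, the text names the 4 called genes with the largest absolute log2FC per deletion and the 2 largest between deletions, and for DUSP6 the 3 genes with the highest correlation. Alternatives were pseudocounts of 0.01 and 1, other filters (FPKM above 0 in at least 2 libraries, mean FPKM of at least 1), centred or quantile-normalized libraries, a replicate block, no trend, only the groups compared, voom on recovered reads, the longest transcript, every transcript, each library left out, 1.5-fold and an adjusted p under 0.01. Leaving out ΔE2 clone 2 and ΔSE12313-b clone 3 together was chosen after seeing the data. Overlapping exons were read from GENCODE v44 on GRCh37, and promoter windows from RefSeq on GRCh38.p14.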

Additional observations from a re-analysis of the deposited data

Results flagged for a closer look

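The following genes were noted because their level differed between the ΔE2 and ΔSE12313-b clones. The test was a direct limma contrast with Benjamini-Hochberg adjustment over all genes. It compares clones that were each grown from a single cell, and whether the deletions or the clones picked make a difference was not tested. DUSP5, a member, was noted for an adjusted p under 0.05 alone, which 26.0% of all genes tested had. Genes of the pathway lists were noted only if called, as 2.63% of all genes were lower and 1.60% higher. List genes under 2-fold are left out, among them PHLDA1 (log2FC -0.85, limma adjusted p = 0.0014) and FGF2 (0.96, adjusted p = 0.00417). DUSP5 was lower in ΔE2 (log2FC -0.76, limma adjusted p = 0.00749), with all 3 ΔE2 clones below all 3 ΔSE12313-b clones. The other 406 genes tested on its arm, 10q, had a median of -0.45 in this contrast, and DUSP5 lay 0.30 below that. Of the receptor ligands, TGFA was lower in ΔE2 (log2FC -1.29, limma adjusted p = 0.00872), but under 2-fold with a pseudocount of 1 (-0.85). RPS6KA2, a kinase below ERK, was higher in ΔE2 (log2FC 1.09, limma adjusted p = 0.0349), a call that was lost under 12 of the alternatives, among them the absence of either control, of ΔE2 clone 2 or 3, or of ΔSE12313-b clone 1 or 2 (adjusted p = 0.0538 to 0.104). Of the ERK targets, LIF was lower in ΔE2 (log2FC -1.61, limma adjusted p = 0.0153), a call that was lost without ΔSE12313-b clone 1 (adjusted p = 0.0501), with a pseudocount of 1 (-0.71) and at an adjusted p under 0.01. ETS1 and EGR1 were higher (log2FC 1.49 and 1.86, limma adjusted p = 0.00013 and 0.00521). In this contrast ETS1 ranks below EGR1 and LIF, the genes named for its list, and is given here because its values were seen to differ. MAPK13, a p38 kinase, was lower in ΔE2 (log2FC -1.90, limma adjusted p = 0.0037), and under 2-fold with a pseudocount of 1 (-0.74). LIF and MAPK13 were under the filter of 0.5 FPKM in every ΔE2 clone, so the sizes of these differences are uncertain. With 2 or 3 libraries a group, single libraries were not tested for standing apart.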

How the results depend on the processing

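The log2FC of a member was set beside its main value 621 times (9 genes, 3 contrasts, 23 alternatives). Of these, 582 kept their direction and side of the threshold, 27 gained a call, 1 lost it and 11 changed sign. Other filters, no trend, only the groups compared, every transcript and a library of the third group left out cannot change a log2FC. The thresholds of 1.5-fold and of an adjusted p under 0.01 reuse the main fit, and can only add or only remove calls. The 582 therefore overstate how little the results depend on the processing. The loss was DUSP10 in ΔE2 with a pseudocount of 1 (log2FC -0.97). The sign changes were all of SPRED1. In ΔE2 it was -0.085 centred, -0.09 with quantile normalization and -0.080 with voom, and between -0.028 and 0.19 with 1 library left out. In ΔSE12313-b it was -0.10, -0.087 and -0.076 under the same 3 settings. Between deletions it was 0.017 centred and between -0.25 and 0.0067 with 1 library left out. The number of members called in ΔSE12313-b went from 3 to 6 when libraries were centred, with quantile normalization, with voom and at 1.5-fold, and between deletions from 0 to 1 at 1.5-fold. With a library left out it was 6 to 7 in ΔE2, 3 to 4 in ΔSE12313-b and 0 between deletions. The cause of these moves was not tested, other than the lower threshold at 1.5-fold.

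The labels number replicates, but libraries with the same number did not deviate together (correlations between -0.08 and 0.11). With the replicate block, 6, 3 and 0 members were called, as without it, and 1474 genes were called higher and 1056 lower in ΔE2. Of 874 such comparisons for the named pathway genes, 816 kept their call and 58 lost it, and 0 changed sign. Many of these could not change either, for the same reasons. Over all genes, a pseudocount of 1 gave 1065 higher and 653 lower in ΔE2, 1411 and 593 in ΔSE12313-b and 100 and 140 between deletions, against 1544 and 1153, 2032 and 1080, and 221 and 362. The threshold of 1.5-fold gave 3109 and 1945, 4124 and 1678, and 492 and 1139, and an adjusted p under 0.01 left 122 and 261 between deletions. With 2 control libraries, both comparisons to control rest on the same pair. Depth limited SPRY1, at 4 to 12 reads.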
